A study of Mus musculus with 102 samples.

Results

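The CpGs of 2 imprinting control regions on mouse chromosome 7, those of Snrpn and of Kcnq1ot1, were followed through the loss of de novo methylation. Members were chosen by position alone: each CpG of the capture table that lay in a fixed window around the Snrpn promoter or around the Kcnq1ot1 promoter (mm9 coordinates) was taken, whatever its level. This gave 136 of the 2177608 CpGs in the table, 54 at Snrpn and 82 at Kcnq1ot1. They were 24.9% of the 217 CpGs that the reference sequence holds in the Snrpn window and 33.7% of the 243 in the Kcnq1ot1 window, so the remaining CpGs of each window were not measured here. The 3 amplicon tables of the series held 0 CpGs in these windows.

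Methylation was measured by bisulfite sequencing after SureSelect capture in mouse embryonic stem cells (ESCs) of a C57BL6/J background whose Dnmt3a and Dnmt3b genes were both floxed. The TTKO line carries frameshift mutations in all alleles of Tet1, Tet2 and Tet3 and is a single CRISPR clone of that floxed line, while WT is the parental floxed line with intact TET proteins. TTKO cells were sampled on day 0, before Cre, when DNMT3A and DNMT3B were still present, and again on day 4, day 8, day 10, day 13, day 17 and day 29 after transduction with Cre protein, which deletes the catalytic exons of both de novo enzymes in most but not all cells and leaves DNMT1. WT cells were sampled on day 0 only. Each of these 8 groups had 3 libraries that the authors joined before deposition, so that 1 value per CpG and group exists and the spread between libraries cannot be seen. Cells were grown on feeder cells before the transduction. No expression was measured here against which the ESC label could be checked. The series lists mock-treated cells for amplicons only and not for capture. Time in culture and time after Cre therefore cannot be told apart at these CpGs.

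Imprinting control regions are CpG-rich sequences that carry DNA methylation on the allele inherited from one parent and none on the other. At both regions described here the maternal allele is the methylated one, a mark set by DNMT3 proteins in the oocyte and then copied at each division by DNMT1, with the zinc finger protein ZFP57 and its partner TRIM28 known to protect such marks in ESCs. Snrpn encodes a small nuclear ribonucleoprotein and lies in the cluster linked to Prader-Willi syndrome in humans. Kcnq1ot1 is a long noncoding RNA, transcribed from the paternal allele within an intron of the potassium channel gene Kcnq1, that silences neighbouring genes in cis. The reads were not assigned to parental alleles, so each level is an average over both.

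The start of Snrpn was placed at chr7:67150085 and that of Kcnq1ot1 at chr7:150482452, both on the minus strand, by an exact match of the RefSeq promoter sequences to the mm9 reference. Around the Snrpn start a CpG island of 586 bases spans chr7:67149597-67150182, with a GC content of 53.9% and an observed over expected CpG ratio of 0.70. It holds 20 of the 54 Snrpn members, 10 of them in an annotated exon just downstream of the start, which is 5′ UTR, and the remaining 44 members of the window are intronic. The Kcnq1ot1 island is longer, with 1549 bases at chr7:150480957-150482505, a GC content of 56.2% and a ratio of 0.81. It holds 79 of the 82 members of its window, all within an intron of Kcnq1. Neighbouring members were a median of 24 bases apart at Snrpn and 10 bases apart at Kcnq1ot1, and therefore often shared the same reads.

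Stretches of both regions are shown in mm9, minus strand, 5′ to 3′, because the levels described next differ between them. Capitals mark the CpGs that were measured. At Snrpn, the intronic stretch at chr7:67149720-67149805 lies in the downstream part of the island, and the stretch at chr7:67151095-67151225 lies upstream of the start and holds the highest levels of the window.
Snrpn island, intronic part: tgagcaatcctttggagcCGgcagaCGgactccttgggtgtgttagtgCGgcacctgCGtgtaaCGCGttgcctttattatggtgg
Snrpn upstream stretch: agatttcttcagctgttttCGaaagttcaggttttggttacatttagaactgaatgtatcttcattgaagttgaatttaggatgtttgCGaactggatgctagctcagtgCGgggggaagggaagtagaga
At Kcnq1ot1, the body of the island at chr7:150481462-150481712 holds 29 measured CpGs, the 250 bases before the start at chr7:150482453-150482702 hold 5, and the stretch at chr7:150483762-150483832 surrounds the single measured CpG far upstream.
Kcnq1ot1 island body: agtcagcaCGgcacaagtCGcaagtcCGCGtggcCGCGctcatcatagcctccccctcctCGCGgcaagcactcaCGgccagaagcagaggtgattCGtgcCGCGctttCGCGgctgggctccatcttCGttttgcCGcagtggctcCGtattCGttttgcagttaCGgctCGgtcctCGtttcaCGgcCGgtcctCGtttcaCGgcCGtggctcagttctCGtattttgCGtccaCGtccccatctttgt
Kcnq1ot1 before the start: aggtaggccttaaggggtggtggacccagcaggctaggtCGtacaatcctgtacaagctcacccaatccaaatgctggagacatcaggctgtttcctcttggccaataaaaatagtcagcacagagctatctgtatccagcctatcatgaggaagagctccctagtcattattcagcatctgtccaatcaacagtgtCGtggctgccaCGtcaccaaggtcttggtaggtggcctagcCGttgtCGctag
Kcnq1ot1 upstream CpG: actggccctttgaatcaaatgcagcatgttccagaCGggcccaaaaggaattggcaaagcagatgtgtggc

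Depth was even across the columns except on day 8. The median coverage of a CpG over the whole table was 152 reads on day 8 and between 216 and 269 in the other columns. At the Snrpn members the median was 110.5 reads on day 8 and between 169 and 230.5 otherwise, and at the Kcnq1ot1 members it was 119.5 on day 8 and between 242 and 303 otherwise. On day 0 the 95% Wilson interval of a single member's level reached a median of 6.07 percentage points to each side at Snrpn and 5.92 at Kcnq1ot1, and covered counting error only.

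The Kcnq1ot1 island was near its starting level 29 days after Cre. The mean level over its 79 CpGs was 44.4% on day 0, 43.8% on day 4, 43.9% on day 8, 45.0% on day 10, 41.1% on day 13, 41.7% on day 17 and 41.1% on day 29, and it was 43.4% in WT. All of these means lay within 4 points of each other. The island thus kept 92.7% of its day 0 level. Over the same period the mean of all 795947 CpGs in the table with 20 to 80% methylation on day 0 went from 58.5% to 26.2%, which is 44.8% kept, and the mean of the 160392 CpGs with 30 to 50% on day 0 went from 40.3% to 10.6%, which is 26.3% kept.

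On day 29, 5 of the 82 were lower than on day 0 (6.10%; two-sided Fisher's exact test on the joined reads, Benjamini-Hochberg adjusted over all CpGs of the table, the adjusted exact p below), whereas 59.3% of all CpGs in the table were called lower by this test. None was called higher, against 0.171% in the table, and at an unadjusted p under 0.05 the counts were 9 lower, beside 60.6% of all CpGs, and 0 higher, beside 0.321%. Without regard to the test, 62 of the 82 had a lower level on day 29 and 18 a higher one. This test compares 2 sets of joined libraries, not conditions with replicates. Under a test that allows for over-dispersion of the reads, 1 CpG was called lower, beside 53% of all CpGs in the table, and 0 higher, beside 0.00175%.

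Levels in the island were alike from CpG to CpG, with an SD over the 79 CpGs of 4.46 points and a range from 34.2% to 57.5% on day 0. The CpG nearest to the start, chr7:150482457, was at 45.4% on day 0, 45.1% on day 4, 51.9% on day 8, 46.3% on day 10, 42.7% on day 13, 37.3% on day 17 and 45.3% on day 29, with 41.5% in WT. Its first and last levels were the same within counting error, and its day 17 level was the lowest (adjusted exact p = 0.0472 against day 0). The 2 CpGs that kept the largest share of their day 0 level lay in the same stretch just downstream of the start. chr7:150482331 had 39.4% on day 0 and 48.7% on day 29, and chr7:150482316 had 34.8% and 42.0%, with adjusted exact p-values of 0.114 and 0.245, so neither passed the test.

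The 5 calls at Kcnq1ot1 lay towards both ends of the measured stretch, 2 of them far downstream of the start and 3 upstream of it. The 11 CpGs between 1000 and 1249 bases downstream of the start went from 43.9% on day 0 to 35.1% on day 29 and kept 80%, while the 4 stretches of 250 bases from the start up to that point kept between 94.2% and 95.6%. Of the 11, chr7:150481280 kept the smallest share of the island, 61.9%, with 47.2% on day 0 (127 reads) and 29.2% on day 29 (89 reads, adjusted exact p = 0.0189). This CpG was also at 26.5% on day 10 and at 38.1% on day 13, so its course was not steady. Upstream of the start, chr7:150482809, 357 bases away, went from 41.4% (95% Wilson interval 36.7 to 46.3%, 408 reads) to 31.9% (27.7 to 36.5%, 429 reads), with an adjusted exact p of 0.00912 that was 0.198 under the over-dispersed test. The last call, chr7:150482504, 52 bases upstream, went from 42.7% to 35.0% (adjusted exact p = 0.0444).

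One CpG of the window, chr7:150483796, stood apart. It lies 1344 bases upstream of the start, outside the island, with no other measured CpG within 500 bases. Its level was 69.9% on day 0, 71.8% on day 4, 68.4% on day 8, 55.7% on day 10, 57.1% on day 13, 47.0% on day 17 and 32.6% on day 29, on 174 to 352 reads. It was the only member that kept under 50% of its day 0 level, 46.6%. The median CpG among those of the table with 20 to 80% on day 0, whose mean level was 58.5%, kept 39.9%. The fall of chr7:150483796 had an adjusted exact p of 2.48e-19 (1.34e-07 under the over-dispersed test). In WT this CpG was at 54.6%, between the TTKO levels of day 13 and day 17.

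**Figure D1:**
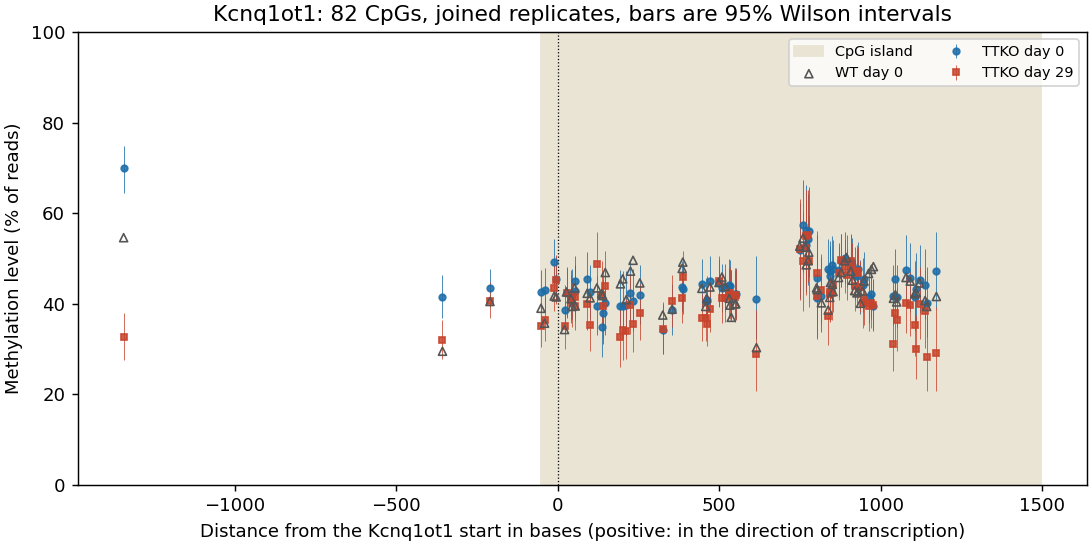
Methylation level in percent of reads of each of the 82 Kcnq1ot1 CpGs against its distance in bases from the Kcnq1ot1 start, for TTKO day 0 (circles), TTKO day 29 (squares) and WT day 0 (triangles), with 95% Wilson intervals for the TTKO columns and the CpG island shaded. The 3 columns overlap over most of the island around 40 to 50%, and separate at the CpG 1344 bases upstream, where TTKO goes from 69.9% to 32.6%.

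At Snrpn the levels were lower to begin with, and the calls on day 29 lay outside the island. The mean over the 20 island CpGs was 27.5% on day 0, 30.4% on day 4, 31.8% on day 8, 31.4% on day 10, 30.7% on day 13, 27.2% on day 17 and 24.8% on day 29, with 33.2% in WT. The day 0 value was thus below those of the next 4 time points and of WT. The island kept 89.9% of its day 0 level and 81.5% of its day 4 level, and the whole window 82.2% and 74.5%. Over the 34 CpGs outside the island the mean was 37.2% on day 0, 41.1% on day 4, 43.3% on day 8, 37.2% on day 10, 37.6% on day 13, 33.9% on day 17 and 29.3% on day 29, with 41.3% in WT, and 78.9% of the day 0 level and 71.4% of the day 4 level were kept.

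By the same Fisher's exact test, 12 of the 54 Snrpn CpGs were lower on day 29 than on day 0 (22.2%, beside the 59.3% of all CpGs in the table) and 0 were higher. All 12 lay outside the island, where they were 12 of 34. Without regard to the test, 50 of the 54 had a lower level on day 29 and 3 a higher one. At an unadjusted p under 0.05 the counts were 16 lower and 0 higher, beside 60.6% and 0.321% of all CpGs, and under the over-dispersed test 3 CpGs were called lower, again beside 53% in the table.

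The 3 CpGs between 1029 and 1120 bases upstream of the start, whose sequence is shown above, were all called. chr7:67151114 had the highest level of the window, with 60.2% on day 0, 70.6% on day 4, 69.7% on day 8, 64.9% on day 10, 62.7% on day 13, 56.8% on day 17 and 41.9% on day 29 (adjusted exact p = 0.00013, and 0.0167 under the over-dispersed test), and 68.7% in WT. Its neighbours chr7:67151136 and chr7:67151205 went from 55.6% to 42.7% and from 34.7% to 20.8%, with adjusted exact p-values of 0.00592 and 0.00764. These 3 levels held through day 13 and were lowest on day 29.

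Further upstream, chr7:67152806 kept the smallest share of all Snrpn CpGs, 54.6%. It went from 32.8% (95% Wilson interval 26.6 to 39.7%, 192 reads) to 17.9% (12.9 to 24.3%, 173 reads), with an adjusted exact p of 0.00227 and 0.041 under the over-dispersed test. Downstream of the start, chr7:67147692, which lies 2393 bases away, had the smallest adjusted exact p of that side, 0.000381 (0.0322 over-dispersed), with 43.4% on day 0, 50.6% on day 4, 42.1% on day 8, 36.5% on day 10, 37.4% on day 13, 29.1% on day 17 and 27.8% on day 29. The pair chr7:67149204 and chr7:67149208, which lie 4 bases apart and share most reads, went from 43.0% to 25% and from 45.5% to 28.4% on 81 to 114 reads (adjusted exact p = 0.0185 and 0.0292), and kept 58.1% and 62.4%.

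Within the Snrpn island the mean level was lower just downstream of the start than in the next 250 bases. The 13 CpGs in the first 250 bases, 10 of them exonic, had a mean of 22.6% on day 0 and 22.2% on day 29, which is 98.0% kept, while the 6 CpGs of the next 250 bases, whose sequence is shown above, had 37.1% and 29.6%, which is 79.7% kept. On days 4, 8, 10 and 13 the 13 CpGs were at 26.5%, 29.2%, 29.6% and 28.4%. They were at 29.2% in WT, so their 98.0% kept rests on a low day 0 level. The 6 CpGs were at 39.0%, 34.6%, 34.15% and 36.1% on those days and at 39.8% in WT. None of these 19 CpGs was called. The CpG at the start itself, chr7:67150085, was at 25.3% on day 0 and 24.0% on day 29. The 2 CpGs that kept the largest share, chr7:67150042 with 20.6% and 21.9% and chr7:67149938 with 23.2% and 24.3%, both lie in the exon, and neither passed the test (adjusted exact p = 0.93 and 0.852).

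**Figure D2:**
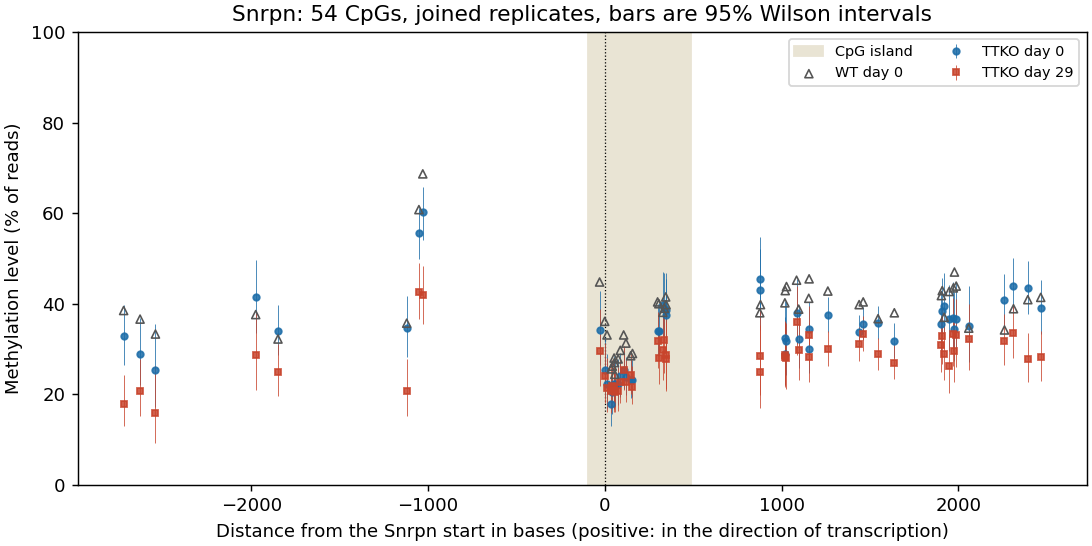
Methylation level in percent of reads of each of the 54 Snrpn CpGs against its distance in bases from the Snrpn start, for TTKO day 0 (circles), TTKO day 29 (squares) and WT day 0 (triangles), with 95% Wilson intervals for the TTKO columns and the CpG island shaded. On day 0 and in WT the levels are lowest just downstream of the start, where day 0 and day 29 overlap and most WT levels lie above both, and the day 29 squares lie below the day 0 circles upstream of the start.

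Set beside CpGs of a like starting level, both regions lay at the upper end. Of the 160392 CpGs in the table with 30 to 50% methylation on day 0, the median CpG kept 23.6%, 95% of them kept less than 52.6% and 99% less than 75.1%. All 74 Kcnq1ot1 CpGs and all 36 Snrpn CpGs that started in this range kept more than 52.6%, and 69 and 23 of them, respectively, kept more than 75.1%. Their medians were 93.1% and 81.9%. Of the 20 Snrpn island CpGs only 7 started in this range, so most of that island was not part of this comparison. The difference between the 2 regions was not tested, since joined libraries leave no spread to test it against and neighbouring CpGs share reads.

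**Figure D3:**
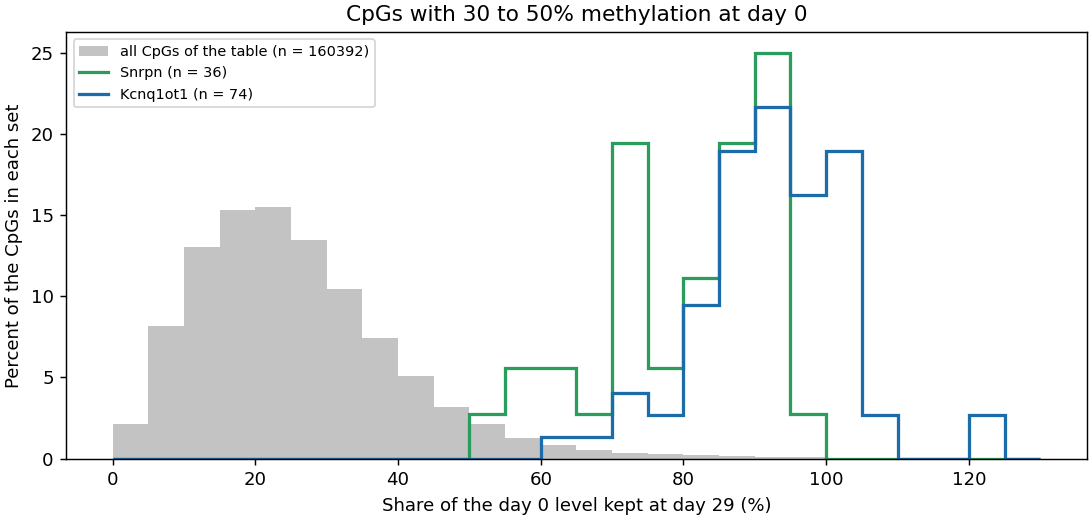
Share of the day 0 methylation level kept on day 29, in percent, for CpGs with 30 to 50% methylation on day 0, drawn as the percent of CpGs of each set in bins of 5 points: all 160392 such CpGs of the table (filled), 36 at Snrpn and 74 at Kcnq1ot1 (lines). The filled distribution has its median at 23.6%, and both lines lie above 50%.

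The time course in between was not a steady decline. All comparisons with day 0 share the same day 0 libraries. The mean over the 54 Snrpn CpGs was 33.6% on day 0, 37.1% on day 4, 39.0% on day 8, 35.0% on day 10, 35.1% on day 13, 31.4% on day 17 and 27.6% on day 29. On day 4 neither region had a call in either direction, against 1.55% of all CpGs called lower and 0.137% called higher. On day 8, 4 Snrpn CpGs and 1 Kcnq1ot1 CpG were called higher than on day 0, against 0.0853% of the table, and none was called lower, against 14.4%. The 4 Snrpn CpGs lie within 40 bases of each other between 1948 and 1988 bases downstream of the start and share reads, so they are 1 observation rather than 4. One of them, chr7:67148107, was at 34.5% on day 0, 45.6% on day 4, 59.8% on day 8 (97 reads, 95% Wilson interval 49.8 to 69.0%), 33.3% on day 10, 42.0% on day 13, 39.9% on day 17 and 29.6% on day 29. The day 8 level stood above every other column, in the shallowest libraries of the course.

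On day 10, 2 Kcnq1ot1 CpGs were called lower (chr7:150483796 and chr7:150481280), beside 35.7% of all CpGs, and on day 13 there was 1 lower in each region beside 43.6%. By day 17 the counts were 5 at Snrpn and 6 at Kcnq1ot1 beside 55.7%. In the other direction 3 Snrpn CpGs and 1 Kcnq1ot1 CpG were called higher on day 10, beside 0.0881% of the table, 2 Snrpn CpGs on day 13, beside 0.137%, and none on day 17, beside 0.138%, with chr7:67148929 and chr7:67148931, 2 bases apart, among the Snrpn calls of both days. These went from 34.4% and 30.0% on day 0 to 46.3% and 42.1% on day 10 and were at 33.0% and 28.2% on day 29. Under the over-dispersed test 1 Kcnq1ot1 CpG and 0 Snrpn CpGs were called lower on day 17, beside 45% of all CpGs. On days 8, 10 and 13 neither region had a call in either direction under that test, beside 0.375%, 8.62% and 22.6% of all CpGs called lower and 0, 3 and 14 CpGs of the whole table called higher.

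**Figure D4:**
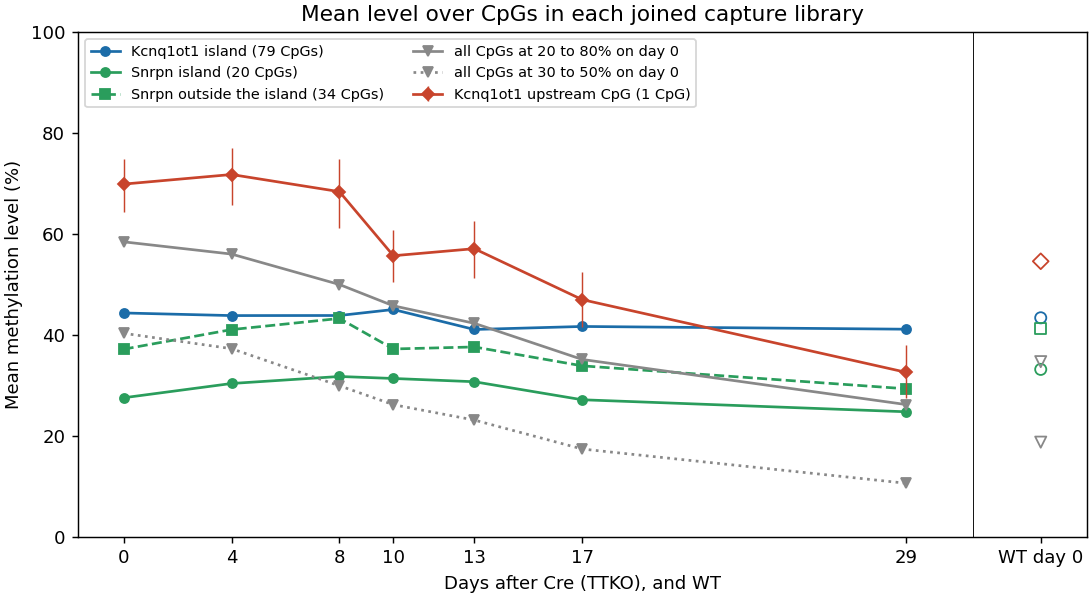
Mean methylation level in percent against days after Cre for the Kcnq1ot1 island, the Snrpn island, the Snrpn CpGs outside the island, the single CpG upstream of Kcnq1ot1 (with 95% Wilson intervals) and all CpGs of the table with 20 to 80% or 30 to 50% on day 0, with the same means in WT at the right. The Kcnq1ot1 island stays between 41.1% and 45.0%, and the upstream CpG goes from 69.9% to 32.6% below it.

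TTKO was compared with WT on day 0, with DNMT3A and DNMT3B present in both lines, to ask how levels differ when the TET proteins are missing. The mean of the Kcnq1ot1 island was 44.4% in TTKO and 43.4% in WT, a difference of 0.96 points, and that of the Snrpn island was 27.5% and 33.2%, a difference of -5.62 points. Among all CpGs of the table with 30 to 50% in TTKO, the median difference was 24.6 points. By Fisher's exact test 44.7% of all CpGs were higher in TTKO than in WT and 0.907% were lower. At Kcnq1ot1, 2 of 82 CpGs were higher (2.44%) and 0 were lower, and at Snrpn 0 of 54 were higher and 4 were lower (7.41%). At an unadjusted p under 0.05 the counts were 3 higher and 1 lower at Kcnq1ot1 and 0 higher and 11 lower at Snrpn, beside 47.6% higher and 1.32% lower in the table, and with the over-dispersed test no member was called in either direction, beside 34.1% of all CpGs called higher and 0.227% called lower.

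The 2 Kcnq1ot1 CpGs that were higher in TTKO both lay upstream of the island, where the remaining measured CpG, chr7:150482662, was not called. chr7:150483796 was at 69.9% in TTKO and 54.6% in WT, a difference of 15.3 points (adjusted exact p = 0.000478), and chr7:150482809 was at 41.4% and 29.5%, a difference of 11.9 points (adjusted exact p = 0.000786). Both are also named above for day 29, and the 2 comparisons share the TTKO day 0 libraries. At chr7:150482809 the levels on days 4, 8 and 10 were 35.9%, 37.0% and 35.5%. The largest differences in the other direction, -8.9 points at chr7:150482219 and -8.7 points at chr7:150481475, did not pass the test (adjusted exact p = 0.15 and 0.0915).

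At Snrpn 43 of the 54 CpGs had a lower level in TTKO than in WT and 10 a higher one. This order was less common in the table, where 19.8% of all CpGs had the lower level in TTKO. The largest differences were at chr7:67149064, with 29.0% in TTKO (95% Wilson interval 22.1 to 37.0%) and 42.9% in WT (35.6 to 50.6%, adjusted exact p = 0.0363), and at chr7:67148107, with 34.5% and 47.0% (adjusted exact p = 0.0707). The other 3 calls were chr7:67148646, chr7:67148929 and chr7:67148931, with differences of -6.0, -11.1 and -11.2 points. In the opposite direction chr7:67149208 was 7.5 points and chr7:67147824 6.6 points higher in TTKO, and neither passed the test (adjusted exact p = 0.398 and 0.177). Since WT and TTKO differ in clonal history as well as in TET, the 2 cannot be told apart here, and the TTKO levels at days 4 to 13 lay nearer to WT than the day 0 level did in the Snrpn island.

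A rate of de novo methylation (k_me) and a rate of demethylation (k_de) were inferred for each CpG from the 7 TTKO time points, both per day. With TET absent, k_de is the loss through imperfect maintenance. The model gives each CpG 1 pair of rates for both alleles. Few members had a precise rate: 3 of 54 Snrpn CpGs (5.56%) and 1 of 82 Kcnq1ot1 CpGs (1.22%) had credible ranges under 2 log2 units for both rates, beside 87.3% of the CpGs with 30 to 50% on day 0. The median log2 k_de was -6.70 at Snrpn and -8.08 at Kcnq1ot1, beside -3.95 for CpGs with 30 to 50% on day 0, and rests on mostly imprecise rates. Without the day 29 column the medians of the 2 regions were -7.46 and -7.66, so their difference depends on that column. The upper ends of the 95% credible ranges had medians of -5.88 and -6.56.

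The rates that were precise belonged to the CpGs that fell. chr7:150483796 had a log2 k_de of -4.91 (95% credible range -5.19 to -4.64), a half-life of 20.9 days without new methylation, and a log2 k_me of -3.40 (-3.95 to -2.99). Under a beta-binomial likelihood 0 Snrpn CpGs and 1 Kcnq1ot1 CpG had a precise rate, so the Snrpn rates that follow hold for the binomial likelihood alone. At Snrpn, chr7:67147692 had the highest precise log2 k_de, -5.19 (-6.01 to -4.91), or 25.3 days, and chr7:67151114 the lowest, -6.15 (-6.70 to -5.60), or 49.2 days. The third, chr7:67148539, lay between them at -6.01. The ranges of chr7:150483796 and chr7:67151114 did not overlap.

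Other imprinted genes whose germline mark is on the maternal allele were measured over CpGs within 1000 bases of the annotated gene start. Of the 13 genes listed, 11 had measured CpGs there, while Mest had 0 at its gene start and Peg13 had no entry in the annotation used. For Kcnq1ot1 and Snrpn the RefSeq start that lies in the window was used in its place. Snrpn also has RefSeq starts outside the window, such as chr7:67285111, near its annotated gene start. Around the starts used, Kcnq1ot1 kept 94.5% over 70 CpGs and Snrpn 85.8% over 22 CpGs. Among the 11, the paternally expressed retrotransposon-derived gene Peg10 kept 91.5%, the zinc finger gene Peg3 78.7%, Plagl1, also a zinc finger gene, 73.1%, the noncoding RNA Airn 70.8%, Zrsr1 69.6%, the neuronal gene Nnat 66.5%, Nap1l5 52.4% and the growth regulator Grb10 44.4%. A gene start need not lie at the germline mark. At Grb10 only 26 of the 54 CpGs there had 20 to 80% methylation on day 0. Kcnq1ot1 lay above all 11, and Snrpn above all but Peg10. This order sets starts taken for lying in the window against plain gene starts, so the measures are not alike. The differences between genes were not tested.

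The genes also differed in how TTKO compared with WT. Peg10, at 43.6% in TTKO and 42.7% in WT, was like Kcnq1ot1 at 44.4% and 43.3%. Plagl1, at 33.3% and 42.7%, and Zrsr1, at 25% and 41.0%, were lower in TTKO, as Snrpn was at 29.1% and 33.7%. Nap1l5, at 52.9% and 30.2%, and Grb10, at 24.7% and 5.33%, were higher in TTKO, as were Peg3, at 45.8% and 38.7%, and Nnat, at 47.5% and 40.5%, while Airn was at 43.6% and 45.1%. Mcts2, Inpp5f and Slc38a4 had means of 6.44%, 13.6% and 6.28% on day 0 near their annotated start, so that little methylation was there to keep, and 5.36%, 8.37% and 3.67% in WT. With all annotated transcript starts in place of the gene start, Mest had 110 measured CpGs and kept 79%, and Slc38a4 had 30.5% on day 0 with 59.6% kept, while Grb10 had 10.3% on day 0 and its difference between TTKO and WT went from 19.4 to 6.96 points.

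**Figure D5:**
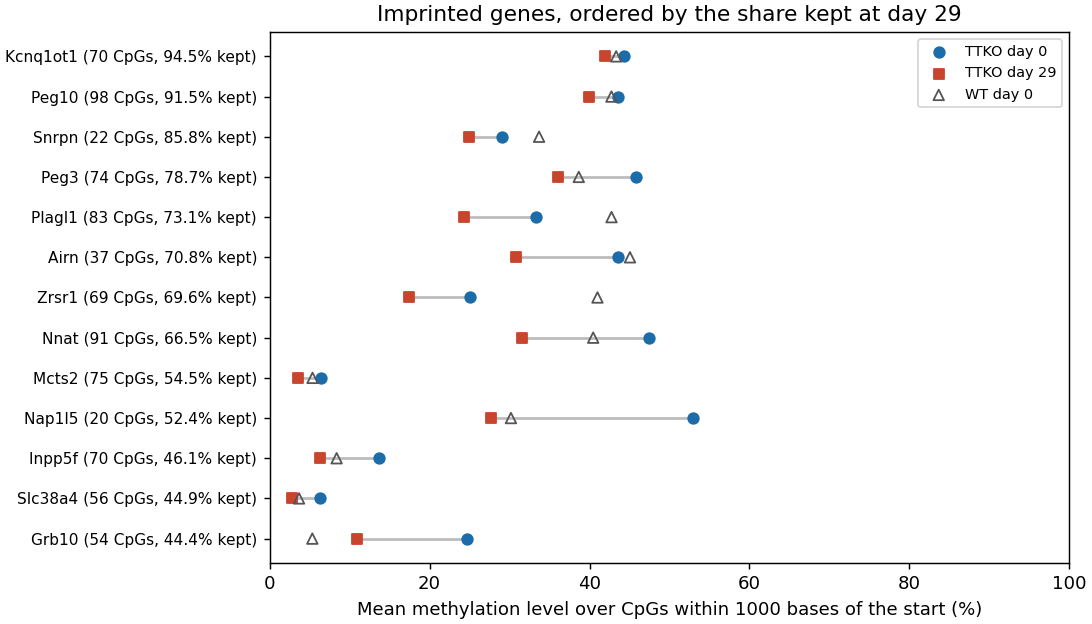
Mean methylation level in percent over CpGs within 1000 bases of the start of 13 imprinted genes (Kcnq1ot1, Snrpn and the 11 others with measured CpGs) at TTKO day 0 (circles), TTKO day 29 (squares) and WT day 0 (triangles), ordered by the share kept on day 29. Kcnq1ot1 (94.5%), Peg10 (91.5%) and Snrpn (85.8%) lie at the top. The start is the RefSeq start in the window for Kcnq1ot1 and Snrpn, and the annotated gene start for the others.

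The hexamer TGCCGC, the sequence to which ZFP57 binds when its CpG is methylated, was searched on both strands. It had 5 matches in the Snrpn island and 3 in the Kcnq1ot1 island, and 11.6% of 32851 RefSeq promoter windows of 300 bases hold it, a share that is no like measure for these longer islands. The 3 matches of the Kcnq1ot1 island lie in the stretch printed above. The 3 measured CpGs within them had a mean of 47.4% on day 0 and 46.3% on day 29, 97.7% kept, beside 92.4% for the 78 other CpGs of that block. The order was not the same throughout, since the CpGs in matches and the others had means of 40.3% and 43.9% on day 8 and of 41.0% and 41.1% on day 13. At Snrpn 4 measured CpGs lay in a match, 3 of them in the island and chr7:67149066 downstream of it, and had means of 30.0% and 25.8%, 86.1% kept, beside 85.1% for the 42 other CpGs of the island and of the block downstream of it. A match is a description of the sequence and does not show that ZFP57 was bound.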

How the data were processed

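Capture bisulfite libraries of TTKO (7 time points) and WT (day 0) mouse ESCs were analysed, 24 of the 102 samples of the series, with 3 libraries for each of 8 columns. The authors aligned reads to mm9 with Rbowtie through QuasR, called CpGs with qMeth, joined the libraries of each group and deposited a methylation level in percent and a read count (coverage) per CpG and column, with at least 50 reads in each. Deposited rates, confidence classes and TET activity classes are the authors' own inferences and were not used.

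Methylated reads were recovered as the level times the coverage, rounded (whole within the rounding of the level for 100% of values). Each CpG was tested with a two-sided Fisher's exact test over all 2177608 CpGs, and p-values were adjusted by Benjamini-Hochberg with a call at under 0.05. Replicates were joined, so p-values reflect counting error between pooled reads, and reads of 1 molecule cannot be told from reads of several, as no molecular identifiers were used. The over-dispersed alternative is a z test of 2 proportions with a beta-binomial over-dispersion of 0.0055. CpG islands were computed from the reference (at least 200 bases, GC of 50% or more, observed over expected ratio of 0.6 or more), and blocks were separated by gaps of over 500 bases. A kept share is the mean level at day 29 over that at day 0, given for single CpGs with at least 20% at day 0. Rates were inferred on a grid of 80 steps of each rate up to 2 per day, assuming that DNMT3 decays at 0.5 per day, that 8% of each level comes from DNA still as on day 0 (incomplete excision) and that conversion fails at a rate of 0.0025. Fisher's test and the rates were tested on simulated data.

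Annotation was GENCODE M1, which does not list Kcnq1ot1, and RefSeq promoter sequences (GRCm38) matched exactly to the mm9 reference. Named CpGs were, per region, the one nearest to the start, the 2 with the largest and the 2 with the smallest kept share, the 2 with the largest TTKO minus WT difference in each direction, and those with the lowest and highest precise k_de. Other CpGs that were called are named because few were, after their values were seen. Members and lists were chosen with earlier results of these data known. Position bins of 250 bases and the range of 30 to 50% at day 0 were chosen after the data were seen. The work used Python 3.11.15, NumPy 2.4.6, SciPy 1.17.1, pandas 2.3.3, numba 0.67.0, statsmodels 0.14.6 and matplotlib 3.10.9.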

Additional observations from a re-analysis of the deposited data

How the results depend on the processing

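No paired analysis was possible because the authors joined the replicates of each group, and for the same reason no replicate could be left out in turn. Under the over-dispersed test the CpGs lower on day 29 went from 12 to 3 at Snrpn and from 5 to 1 at Kcnq1ot1, and those lower on day 17 from 5 to 0 and from 6 to 1. All calls against WT (4 at Snrpn and 2 at Kcnq1ot1) went to 0, as did the calls in either direction at days 8, 10 and 13. Requiring a difference of 10 points left 3 of the 5 Kcnq1ot1 calls on day 29, beside 51.9% of the table's CpGs, and 3 of 5 at Snrpn and 3 of 6 at Kcnq1ot1 on day 17, beside 47.5%. With at least 100 reads in all columns, 31 Snrpn and 64 Kcnq1ot1 CpGs were left. Of these, 11 at Snrpn (35.5%) and 4 at Kcnq1ot1 were lower on day 29, beside 65.7% of the table's CpGs, 2 were higher on day 8 (0.131%) and 3 lower on day 17 (63.1%) at Snrpn, and 2 were lower on day 13 (52.6%) at Kcnq1ot1.

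With that minimum the mean of the Snrpn window was 36.0% on day 0, 40.9% on day 4, 41.6% on day 8, 36.4% on day 10, 37.2% on day 13, 33.3% on day 17, 29.1% on day 29 and 39.8% in WT. The Snrpn island means were 30.3% on day 0, 34.4% on day 4, 33.1% on day 10, 32.9% on day 13, 26.9% on day 29 and 34.9% in WT. At Kcnq1ot1 the window was at 43.8% and 42.8%, and the island at 43.5% and 42.5%, on days 0 and 4. The share kept at Snrpn was 82.2% over the whole window in place of the island, and against day 4, a reference chosen after seeing the data, it was 81.5% for the island and 74.5% for the window. With a beta-binomial likelihood 0 Snrpn CpGs had a precise rate in place of 3. The other 131 recomputed values moved by less than their counting interval, for counts by at most 1.5 times, and for rates within the credible range of a single CpG. Among these, leaving out the day 29 column took the median log2 k_de from -6.70 to -7.46 at Snrpn and from -8.08 to -7.66 at Kcnq1ot1. Among single CpGs named or called, 19 calls were lost under the over-dispersed test and 6 under the 10-point rule, and 1 was gained with the minimum of 100 reads. Counting error is the limit for single CpGs, and the spread between libraries could not be measured.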
